A study of Arabidopsis thaliana with 2 samples.

Results

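Peaks far from protein-coding genes were taken from a ChIP-seq peak list of IBH1, a helix-loop-helix protein of Arabidopsis thaliana, as the peaks on chromosomes 1 to 5 whose summit lay more than 1000 bp from the bounds of every nuclear protein-coding gene. They numbered 281 of the 2944 nuclear peaks, or 9.54% (exact 95% interval 8.51% to 10.7%), and the other 2663 nuclear peaks had their summit inside or within 1000 bp of such a gene. The study compared 2 pools of whole Col-0 seedlings, collected at 10 days and grown at 22 °C with 16 h of light and no treatment. The first expressed IBH1-GFP from the 35S promoter (p35S::IBH1-GFP), and the second, the control, expressed GFP from the same promoter (p35S::GFP). An anti-GFP antibody was used for both, and for each the DNA of 3 ChIP experiments was pooled into 1 library. The labels do not fully match: IBL1 is named in the title of the sample whose line is IBH1-GFP, and the protocol names Col-0 where the line of the control is p35S::GFP. The 35S promoter drives strong expression in most tissues, so the list reports an overexpressed, tagged protein.

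A single deposited list of peaks and summits was analysed here, which names no sample and is read as that of the IBH1-GFP library. No replicate list and no list of the GFP library were analysed here. Differences between groups of peaks are therefore given as values with no test, and intervals cover counting error only. Each peak carries the caller's score, which starts at 50.01 in this list, and a summit height, the number of stacked fragments there. Read totals were not at hand, so the depth of the libraries is unknown.

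IBH1 lacks the basic residues with which typical bHLH proteins contact DNA, and it is known to restrain cell elongation in the brassinosteroid pathway by pairing with other helix-loop-helix proteins. Arabidopsis has a compact genome in which most regulatory DNA lies close to genes. Long stretches without protein-coding genes are mostly found around the centromeres, where transposons and their remnants are common. The pseudogenes of the gene table include named transposon relatives such as SADHU retroposons, and the table also lists long noncoding and small RNA genes.

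Far summits were scarce for the amount of far sequence. Positions more than 1000 bp from every protein-coding gene made up 25.5% of the chromosomes, 30.4 of 119 Mb, but held 9.54% of summits, a ratio of 0.37. Most far summits were not very distant: 122 of them lay 1 to 2 kb from the nearest protein-coding gene, 121 lay 2 to 5 kb away, 22 lay 5 to 10 kb away and 16 lay over 10 kb away. The median distance was 2171 bp (quartiles 1464 and 3911 bp). For 66 peaks the bounds of the peak came within 1000 bp of a gene although the summit did not, and 3 of these peaks overlapped a gene.

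Over whole chromosomes the density of summits was lower at far positions than in or beside genes. It was 30.8 per Mb inside protein-coding genes (95% Poisson interval 29.5 to 32.2), 32.97 per Mb within 0.5 kb of one (30.2 to 35.9) and 18.3 per Mb at 0.5 to 1 kb (15.5 to 21.4). Among far positions it was 13.7 per Mb at 1 to 2 kb (11.4 to 16.4), 14.1 at 2 to 5 kb (11.7 to 16.9), 5.25 at 5 to 10 kb (3.29 to 7.95) and 1.84 beyond 10 kb (1.05 to 2.98). The last 2 steps looked different once chromosome place was taken into account. The term gene-poor stands here for windows of 500000 bp that hold under 60 protein-coding genes, 36 of 240 in all. Outside them, the density was 14.6 per Mb at 1 to 2 kb (12.0 to 17.6), 16.9 at 2 to 5 kb (13.8 to 20.5), 14.1 at 5 to 10 kb (8.61 to 21.8) and 12.7 beyond 10 kb (4.66 to 27.6). Within gene-poor windows it was 7.82, 7.29, 0.72 and 1.21 per Mb over the same 4 ranges, from 9, 18, 2 and 10 summits. The 6 summits beyond 10 kb and outside gene-poor windows lay in 0.47 Mb, so that value is imprecise.

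**Figure D1:**
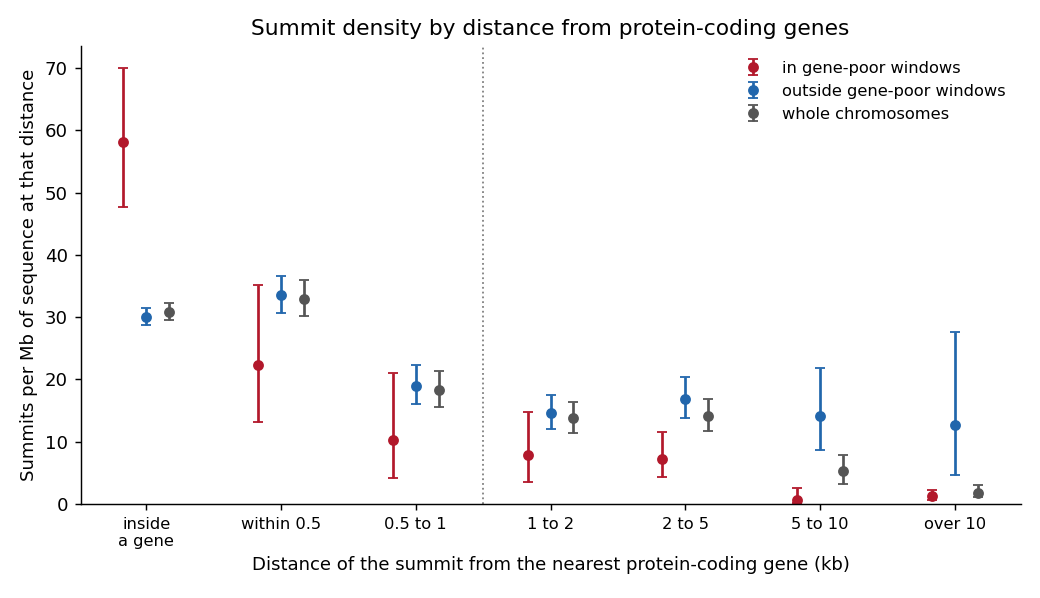
Summits per Mb of sequence (vertical axis) by distance from the nearest protein-coding gene (horizontal axis, kb), in gene-poor windows, outside them and over whole chromosomes; bars are 95% Poisson intervals, and far peaks lie right of the dotted line. Outside gene-poor windows the density of far summits stays between 12.7 and 16.9 per Mb, whereas in gene-poor windows it is 1.21 per Mb beyond 10 kb.

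The same summits were also counted by the length of the gap between neighbouring protein-coding genes. Each of the 281 far summits lay in a gap with a gene on both sides. Counted once per summit, the gap length had a median of 7851 bp (quartiles 5133 and 12203 bp). Far positions held 13.3 summits per Mb in gaps of 2 to 5 kb (10.3 to 16.9), 16.6 in gaps of 5 to 10 kb and 14.3 in gaps of 10 to 20 kb (11.2 to 18.1). In gaps of 20 to 50 kb the value was 5.07 (3.34 to 7.37). The 84 gaps over 50 kb, with 8.31 Mb of far sequence, held 4 far summits, or 0.48 per Mb (0.13 to 1.23). Gaps were not separated by chromosome place, so gap length and gene-poor windows cannot be told apart in these values.

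Across chromosomes, far peaks were most frequent for their far sequence on chromosome 4, with 67 peaks or 13.3 per Mb (10.3 to 16.9). Chromosome 2 held 64 at 10.98 per Mb (8.46 to 14.02), chromosome 1 held 65 at 9.36 per Mb (7.22 to 11.9) and chromosome 3 held 50 at 8.06 per Mb (5.98 to 10.6). Chromosome 5 had the fewest, 35 at 5.51 per Mb (3.84 to 7.66), and its interval did not overlap that of chromosome 4. The intervals of neighbours in this order overlapped. The other peaks were also most frequent on chromosome 4, at 41.5 per Mb, and least frequent on chromosome 5, at 25.6 per Mb. As a share of all peaks of a chromosome, far peaks were highest on chromosome 2, at 11.8% (9.23% to 14.9%). Chromosome 4 followed with 10.6% (8.34% to 13.3%), and chromosome 5 was lowest with 6.23% (4.38% to 8.56%). The interval of chromosome 5 overlapped that of chromosome 4 but not that of chromosome 2.

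Along the chromosomes the far peaks were sparse in the gene-poor windows, and their density was highest, by its value, beside them. Gene-poor windows held 48.2% of far sequence and 39 far summits, 13.9% of the far peaks (10.06% to 18.5%), or 2.67 per Mb (1.90 to 3.64). Of the 36 windows, 19 held no far summit. All densities here count every base, with no allowance for sequence where reads could not be placed. Within 2 Mb of such a window there were 123 far summits at 18.6 per Mb (15.5 to 22.2). At 2 to 5 Mb there were 43 at 12.6 per Mb (9.14 to 17.0), and beyond 5 Mb there were 76 at 13.3 per Mb (10.4 to 16.6), so the intervals of these 3 places overlapped. On each chromosome the gene-poor windows had the lowest density of far summits of these 4 places, between 1.75 per Mb on chromosome 1 and 4.03 on chromosome 4. The highest value was within 2 Mb of a window on chromosomes 1, 2, 4 and 5 and beyond 5 Mb on chromosome 3 (14.6 per Mb, against 14.4 within 2 Mb), but on each chromosome the intervals of the 3 places outside the windows overlapped.

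The other peaks also had their highest density within 2 Mb of a gene-poor window. Per Mb of their own sequence they numbered 39.7 in gene-poor windows (33.3 to 47.1), 59.98 within 2 Mb (56.0 to 64.1), 34.3 at 2 to 5 Mb (31.8 to 36.9) and 19.0 beyond 5 Mb (17.8 to 20.3). In gene-poor windows, unlike the far peaks, their density was above that at 5 Mb or more from one. The far peaks made up 22.5% of all summits in gene-poor windows (16.5% to 29.5%), 12.5% within 2 Mb, 5.74% at 2 to 5 Mb and 7.34% beyond 5 Mb (5.83% to 9.10%). The single windows with most far summits, 8 each, were the window of chromosome 2 from 1500001 to 2000000, that of chromosome 2 from 6500001 to 7000000 and that of chromosome 4 from 5500001 to 6000000 (TAIR9, the build of every coordinate here, counted from 1). These had 90, 85 and 77 protein-coding genes and so were not gene-poor.

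**Figure D2:**
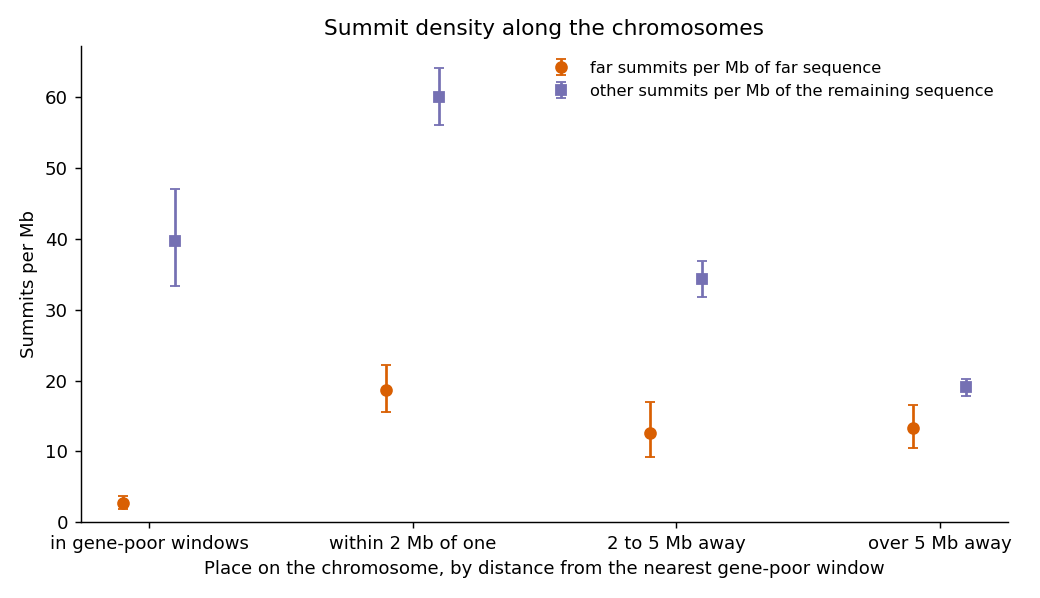
Summits per Mb (vertical axis) of far peaks over far sequence and of the other peaks over the remaining sequence, by distance from the nearest gene-poor window (horizontal axis); bars are 95% Poisson intervals. Far peaks have 2.67 per Mb in gene-poor windows and 18.6 per Mb within 2 Mb of them, and the other peaks have 39.7 and 59.98 per Mb there, so both are highest within 2 Mb.

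Over whole chromosomes, the scores of far peaks were close to those of the other peaks. Tall summits made up a larger share of the far peaks, and their median width was smaller. The median score was 73.9 in far peaks (quartiles 59.3 and 98.9, highest 301.95) and 72.7 in the other peaks (58.9 and 99.8). A score of 100 or more was found in 24.2% of far peaks (19.3% to 29.6%) and 24.8% of the others (23.2% to 26.5%). The median summit height was 28 fragments in far peaks (upper quartile 38) and 27 in the others (upper quartile 34). Summits of 50 fragments or more made up 12.5% of far peaks (35 peaks, 8.83% to 16.9%) and 6.31% of the others (5.41% to 7.30%). Among the others, the share was 12.1% for summits 1 to 1000 bp outside a protein-coding gene, close to that of the far peaks, and 4.33% for summits inside one. The median width was 829 bp in far peaks (quartiles 668 and 1017 bp) and 890 bp in the others (729 and 1139 bp). Widths above the 90th percentile of the list, 1473 bp, were found in 5.34% of far peaks (3.02% to 8.65%) and 10.5% of the others (9.37% to 11.7%).

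More than 2 Mb from a gene-poor window the far peaks had the larger median height and a median width over 100 bp smaller, whereas nearer to the windows the median height was the smaller one and the widths differed by at most 4 bp. At 2 to 5 Mb the far peaks had medians of 34 fragments and 728 bp, and the other peaks 27 fragments and 889.5 bp. Beyond 5 Mb the medians were 33 fragments and 748.5 bp in far peaks and 27 fragments and 852 bp in the other peaks. The difference in height was mostly from summits inside genes. Among the other peaks more than 2 Mb away, those inside a protein-coding gene had medians of 25 fragments and 874 bp (n = 1230). Those 1 to 1000 bp outside one had 32 fragments, close to the far peaks, and 843 bp (n = 435). Within 2 Mb of a gene-poor window the far peaks had 26 fragments and 928 bp and the other peaks 27 fragments and 929 bp. In gene-poor windows the far peaks had 23 fragments and 896 bp and the other peaks 26 fragments and 900 bp. The order of the median scores also changed with place. Far peaks had 63.6 and the other peaks 75.1 in gene-poor windows, and 75.1 and 79.0 within 2 Mb. The scores were 80.6 and 71.6 at 2 to 5 Mb, and 74.1 and 68.9 beyond 5 Mb.

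Across the 281 far peaks, the correlation of score with height was 0.49 (Pearson's r) and 0.48 (Spearman's rho), and across the other 2663 it was 0.51 and 0.46. Height and width had a rho of 0.00 in far peaks and 0.24 in the others. Distance from the nearest gene had a rho of −0.20 with height and −0.02 with score. All points come from the same library and the same caller, which derives the score from the fragments it counts, so these values describe the list only.

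The far peaks fell into types by what the annotation places at the summit. In 170 of them (60.5%) the summit was in no annotated gene at all, and 126 summits (44.8%) were more than 1000 bp from every annotated gene of any kind. The remaining 111 summits (39.5%, 33.7% to 45.5%) lay inside a gene of another type, compared with 165 of the other peaks (6.20%, 5.31% to 7.18%), many of whose summits lie in a protein-coding gene. Genes of other types covered 33.9% of far sequence. Pseudogenes held 82 far summits (29.2%) and covered 31.6% of far sequence. Long noncoding RNA genes held 21 (7.47%, 4.69% to 11.2%) and covered 1.21%. Genes of the table's miscellaneous RNA type held 11 (3.91%, 1.97% to 6.90%) and covered 0.77%. A single summit lay in a gene of the other noncoding RNA type. None of the 281 lay inside a miRNA, tRNA, snRNA, snoRNA or rRNA gene, which allows a share of up to 1.07% for each (3 counts of the total), and these small genes cover little far sequence. A summit can lie in overlapping genes of several types.

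Per Mb, pseudogenes had about as many far summits as unannotated far sequence in the pooled values, at 8.54 (6.80 to 10.6) and 8.47 (7.24 to 9.84). Separated into gene-poor windows and the rest, pseudogenes had the higher value both times. The rest is not uniform, since far summits numbered 18.6 per Mb within 2 Mb of a window and 12.6 and 13.3 farther away. More than 2 Mb from a window, 10 far summits lay in pseudogenes and 92 in no annotated gene. Densities by type were not computed at that distance, so place is only partly taken into account. Outside gene-poor windows, pseudogenes held 62 summits at 19.9 per Mb (15.3 to 25.5), and sequence with no annotated gene held 154 at 12.8 per Mb (10.8 to 14.98). Inside gene-poor windows the values were 3.09 per Mb (20 summits, 1.88 to 4.76) and 1.99 per Mb (16 summits, 1.14 to 3.24), with overlapping intervals. Long noncoding RNA genes had 61.1 far summits per Mb outside gene-poor windows (36.8 to 95.3). Miscellaneous RNA genes had 52.8 per Mb there (25.3 to 97.0).

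**Figure D3:**
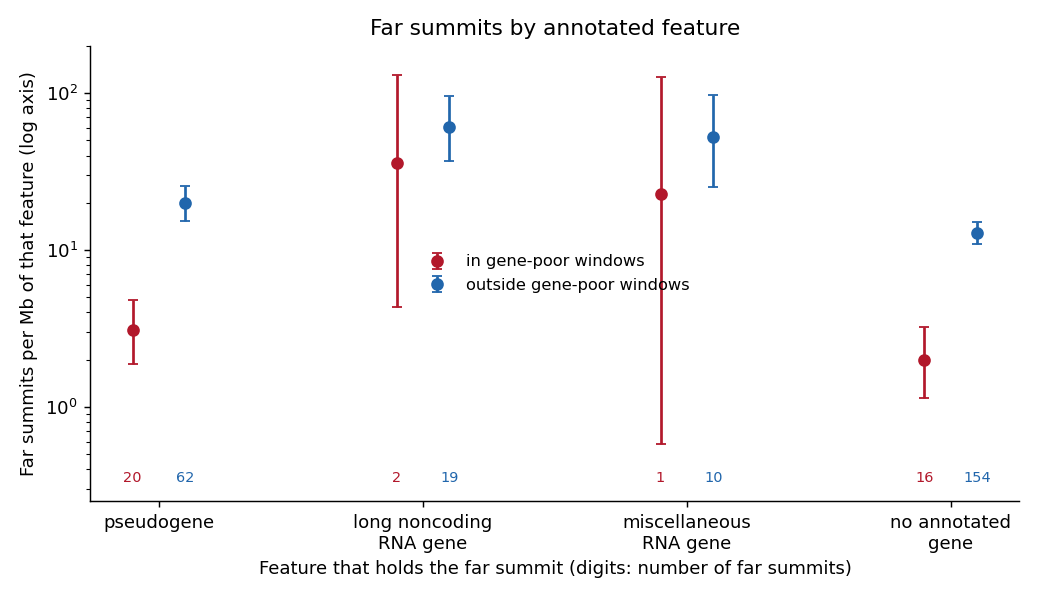
Far summits per Mb of the feature that holds them (vertical log axis) for pseudogenes, long noncoding RNA genes, miscellaneous RNA genes and sequence with no annotated gene, in and outside gene-poor windows; bars are 95% Poisson intervals and digits give the number of summits. Outside gene-poor windows, pseudogenes have 19.9 and unannotated sequence 12.8 summits per Mb.

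Peak shape differed between these types more than between far and other peaks as wholes. Far peaks in pseudogenes were low and broad, with a median height of 22 fragments (quartiles 20 and 26) and a median width of 1014 bp (828 and 1226 bp, n = 82). Far peaks in no annotated gene were tall and narrow, with a median height of 31 (25.3 and 44.8) and a median width of 750 bp (639 and 921 bp, n = 170). Those in RNA genes without a pseudogene had a median height of 31 and a median width of 802 bp (n = 29). The median scores were close, at 71.6, 75.1 and 73.9. Among the other peaks, summits inside protein-coding genes had a median height of 25 and a width of 900 bp (n = 1987), and summits 1 to 1000 bp outside them had 32 and 861 bp (n = 676).

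The order of pseudogenes and unannotated sequence was found in both parts of the chromosomes, while that of the RNA genes was not fixed. In or within 2 Mb of a gene-poor window, far peaks had a median height of 22 in pseudogenes (n = 72) and 28 in no annotated gene (n = 78), and median widths of 1017 bp in pseudogenes and 800 bp in no annotated gene. More than 2 Mb away the median height was 21.5 in pseudogenes (n = 10) and 34 in no annotated gene (n = 92), and the median widths there were 934 bp in pseudogenes and 718 bp in no annotated gene. RNA genes had a median height of 31 near gene-poor windows (n = 12), above that of unannotated sequence, and 32 farther away (n = 17), below it. Of the 35 far summits of 50 fragments or more, 30 were in no annotated gene, 3 in RNA genes and 2 in pseudogenes. These 2 were AT3G45095, with 54 fragments, and AT1G43997, with 58. A single far summit this tall lay in a gene-poor window, and 34 of the 35 had a protein-coding gene within 5 kb.

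**Figure D4:**
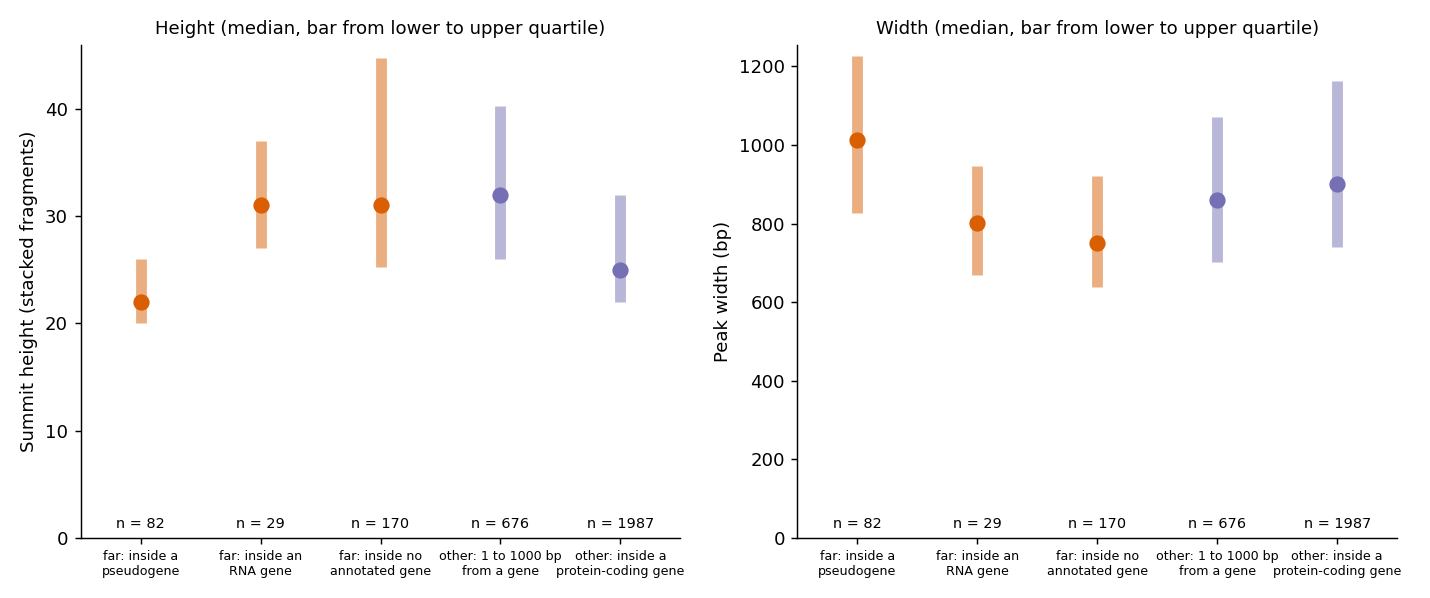
Summit height in stacked fragments (left) and peak width in bp (right) for far peaks by the feature at the summit and for the other peaks; points are medians and bars run from the lower to the upper quartile, with the number of peaks below. Far peaks in pseudogenes have medians of 22 fragments and 1014 bp, and those in no annotated gene have 31 fragments and 750 bp.

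The far peak with the highest score, 301.95, was the 15th of the whole list. It spanned 11206823 to 11207872 on chromosome 3, with a summit of 62 fragments, 2247 bp from AT3G29255 and 12168 bp from SDR4 (AT3G29250) on the other side, in a gap of 14414 bp. The second, on chromosome 4 from 7355021 to 7355922, scored 271.56 with 65 fragments. It lay 2301 bp from SKU5 (AT4G12420), which codes for a cell surface protein of directional root growth, and 9821 bp from the trehalose-phosphate phosphatase gene TPPF (AT4G12430). The third, on chromosome 2 from 6345802 to 6346927, scored 261.63 with 60 fragments and was 4859 bp from AT2G14765. No annotated gene of any type lay within 1000 bp of these 3 summits.

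Next by score was a peak of 2305 bp on chromosome 3 from 16502525 to 16504829, which scored 254.47. Its summit, 54 fragments high, lay in the pseudogene AT3G45095, 1221 bp from SETH2 (AT3G45100), a gene of glycosylphosphatidylinositol anchor synthesis that pollen needs. The peak was wide enough to reach into SETH2. A peak on chromosome 4 from 8485975 to 8486815 scored 239.53 and lay 1583 bp from TCX2 (AT4G14770), a gene for a DNA-binding protein with cysteine-rich CXC domains.

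The next 3 by score lay near RNA genes or in open gaps. On chromosome 4 from 12501188 to 12502319, a peak with a score of 210.5 and 50 fragments had its summit where the long noncoding RNA genes AT4G07235 and AT4G07240 overlap. It was 1372 bp from AT4G24050 and 1974 bp from AT4G24060. On chromosome 5 from 9966265 to 9967608, a summit in the long noncoding RNA gene AT5G04595 scored 209.55 with 39 fragments, and the nearest protein-coding gene, AT5G27930, was 5263 bp away. On chromosome 3 from 7397203 to 7397751, a narrow peak of 549 bp scored 205.56 with 57 fragments, in a gap of 3862 bp between the transporter gene ABCG15 (AT3G21090) and AT3G21100.

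The remaining 7 of the 15 highest scored 179.69 to 185.85. The peak on chromosome 5 from 10632181 to 10633442 had its summit inside SADHU1-3, a pseudogene of the SADHU retroposon family. It combined a score of 185.85 with a summit of only 23 fragments. The peak beside ATPC1 (AT4G04640), which codes for a subunit of the chloroplast ATP synthase, scored 184.93 and also reached into the gene. Other peaks lay 1191 bp from ARF21 (AT1G34410, score 184.55), an auxin response factor gene, and 2134 bp from HDA7 (AT5G35600, 183.72), a histone deacetylase gene. FBH2 (AT4G09180), a bHLH activator of the flowering regulator CONSTANS, was 2102 bp from a summit that scored 181.73. NAC067 (AT4G01520), of the NAC transcription factor family, was 4060 bp from a summit that scored 181.13 and lay 170 bp from the pseudogene AT4G01530. The last of the 15, with 179.69, was 1569 bp from AT2G17305.

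None of the 5 tallest far summits belonged to the 15 far peaks with the highest scores, which are a small part of the 281. The tallest, 82 fragments, was the 7th tallest of the whole list, on chromosome 5 from 24384071 to 24384851, 1536 bp from AT5G60680. Its score was 59.33, below the list's median of 72.8. The second, 73 fragments, belonged to the widest far peak of all, 3567 bp on chromosome 3 from 1960524 to 1964090. It lay between PPR2 (AT3G06430), of the pentatricopeptide repeat family, and AT3G06435, with a score of 111.78. A pair of summits of 70 fragments lay in long noncoding RNA genes. The first was in AT1G05863, 1627 bp from AT1G24265 and 2641 bp from the floral MADS-box gene SEP3 (AT1G24260), and the second in AT5G09170, 1224 bp from FP3 (AT5G63530) and 3725 bp from RMI1 (AT5G63540), a gene of DNA recombination. Their scores were 92.19 and 98.49. The fifth, with 68 fragments and a score of 90.28, was 2345 bp from AT2G28060. Of the 35 far summits of 50 fragments or more, 6 scored below the list's median, against 136 of all 281 far peaks. Among summits above the 90th percentile of height in the list, 45 fragments, 6 of 46 far summits scored below it (13.0%, 4.94% to 26.3%). The other peaks had 49 of 235 such summits (20.9%, 15.8% to 26.6%), so a low score at a tall summit was not more frequent in far peaks.

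**Figure D5:**
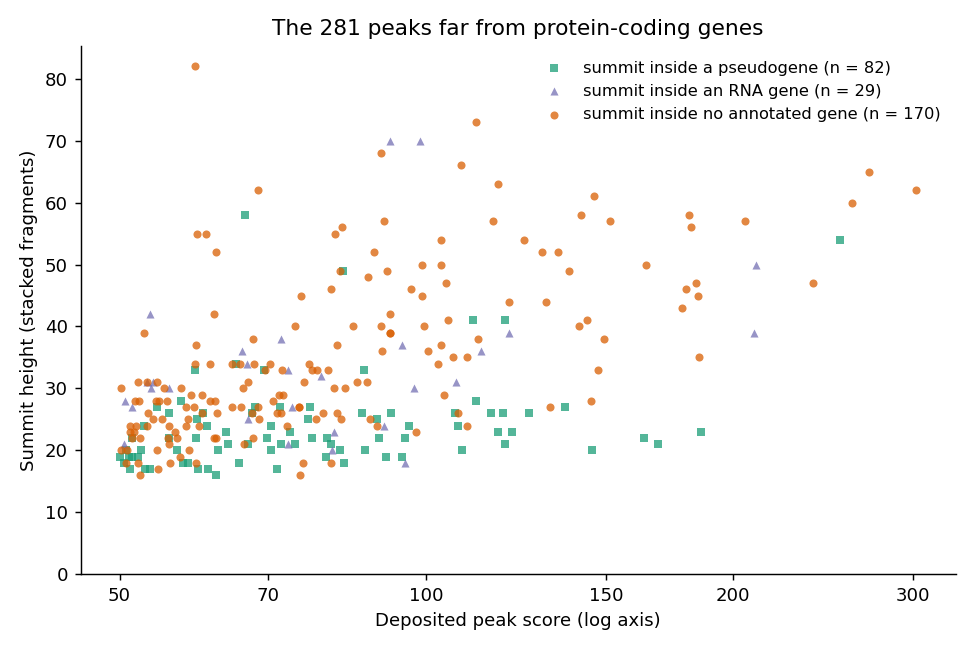
Summit height in stacked fragments (vertical axis) against the deposited score (horizontal log axis) for the 281 far peaks, with 1 point per peak marked by the feature that holds its summit. The tallest summit, 82 fragments, has a score of 59.33, and most peaks in pseudogenes stay near 22 fragments over the range of scores.

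Of the 5 widest far peaks, 4 had their summit in a pseudogene. After the peak near PPR2, the widest was 2566 bp on chromosome 2 from 1780899 to 1783464, in the pseudogene AT2G05030. It scored 117.44 with 23 fragments, 12048 bp from the nearest protein-coding gene. A peak of 2542 bp on chromosome 4 from 6130885 to 6133426, in the pseudogene AT4G09710, scored 59.57 with 25 fragments and reached into the small GTPase gene RABG3A (AT4G09720), 1539 bp from the summit. The peak in AT3G45095 described above came next. The fifth, 1830 bp on chromosome 1 from 16639008 to 16640837, lay where the pseudogene AT1G43886 and the RNA gene AT1G07203 overlap and scored 168.75 with 21 fragments.

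The summits farthest from protein-coding genes were low. The farthest by a wide margin was on chromosome 3 from 13814412 to 13815161, 205895 bp from AT3G33187 in a gap of 490588 bp. It scored 67.53 with 22 fragments, and the nearest other summit of the list was 1064803 bp away. The next 4 lay 16288 to 30451 bp from a gene, each inside a pseudogene: AT4G08090 (score 51.4, 19 fragments), AT3G43355 (50.56, 18 fragments), AT4G04145 (92.3, 26 fragments) and AT3G29773 (50.73, 20 fragments). Each of these 5 summits was in a gene-poor window, as were 10 of the 16 summits beyond 10 kb. Gene-poor windows held 8.24 of the 8.71 Mb of sequence at that distance, so this place is not read as a trait of the 5. Among all 16 summits beyond 10 kb the heights ran from 16 to 39, with a median of 20, and the median score was 75.3.

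At the limit itself, the few summits on each side were as follows. The 3 summits just inside the definition were 1008, 1016 and 1019 bp from a gene. They had heights of 35, 28 and 25 and scores of 184.93, 55.64 and 68.56, and lay near ATPC1, the methyl-CpG-binding domain gene MBD3 (AT4G00416) and AT2G23450. The 3 summits just outside it were 1000, 993 and 986 bp from a gene, with heights of 24, 23 and 21 and scores of 70.85, 50.01 and 50.5. The 3 inside were thus taller than the 3 outside, and their scores overlapped. The larger groups had the reverse order of heights. The median was 29.5 for far summits at 1 to 2 kb (n = 122) and 32 for summits 1 to 1000 bp from a gene (n = 676).

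Few far summits lay beside small RNA genes, which cover little far sequence. The share of far sequence was 0.076% for miRNA genes, 0.035% for tRNA genes and 0.016% for snoRNA genes. The low counts are therefore not read as avoidance. A summit on chromosome 2 from 17660443 to 17661299 lay 3 bp from the tRNA gene AT2G42420, with a score of 76.64 and 34 fragments. It was between the zinc finger gene ZFP11 (AT2G42410) and LBD16 (AT2G42430), a regulator of lateral root formation. A summit on chromosome 4 from 17149148 to 17149904 lay 52 bp from the tRNA gene AT4G36245 (score 54.66, 28 fragments), 1098 bp from the transcription factor gene GATA7 (AT4G36240). The peak on chromosome 2 from 2184406 to 2185384 had 3 snoRNA genes within 280 bp of its summit, the nearest, AT2G04965, at 97 bp, and scored 100.45 with 36 fragments. No far summit lay within 200 bp of a miRNA, snRNA or rRNA gene. Of 326 miRNA genes, 4 had a far summit within 1000 bp: MIR161 at 307 bp (score 51.23), MIR825 at 752 bp (79.95), and MIR850 at 324 bp and MIR863 at 346 bp from the same summit, which lay in the noncoding RNA gene AT4G13495 (97.18). TAS3, whose small RNAs silence auxin response factor genes, was 207 bp from a summit with a score of 103.32 and 50 fragments.

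Named transposon relatives held 3 of the far summits. Of 16 SADHU genes, 2 held a far summit, SADHU1-3 and SADHU2-1. The summit in SADHU2-1 scored 136.66 with 27 fragments, and a second far summit lay 731 bp from it. Of 6 MUSTANG (MUG) genes, which descend from Mutator-like transposases, MUG2, listed as a pseudogene, held a summit of 20 fragments that scored 82.26. Over all 4843 pseudogenes, 80 (1.65%) held a far summit, and the families are too small to set a share against this.

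A single gene of the pathway around IBH1 was the nearest neighbour of a far summit within 5 kb. For 243 far peaks the nearest protein-coding gene was within 5 kb, and in 1 of them this gene was a member of the brassinosteroid list of 37 genes. That gene was BRI1 (AT4G39400), the brassinosteroid receptor. The summit, on chromosome 4 from 18322303 to 18323111, was 1705 bp from BRI1, 62 fragments high, as tall as that of the far peak with the highest score, with a score of 68.3. The gap of 6230 bp was shared with NST-K1 (AT4G39390) 4526 bp away on the other side. No far summit within 5 kb had a nearest gene in the bHLH network list of 34 genes or the light signalling list of 21 genes. The 1 gene makes up 1.09% of the 92 entries of the 3 lists, near the 0.86% of all protein-coding genes (236 of 27444) that were nearest to a far summit in this way. Listed genes on the farther side of a summit were not counted. Examples, picked after their values were seen, are DWF4 (AT3G50660) at 4656 bp and BR6OX1 (AT5G38970) at 4526 bp. In each case the gene on the other side was nearer, at 4099 and 4068 bp.

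Most gaps with a far summit held only 1. The 281 summits lay in 264 gaps, and 15 gaps held more than 1. Gaps were far more numerous than far summits, with 4412 of 2 to 5 kb, 1422 of 5 to 10 kb and 430 of 10 to 20 kb. The low number of shared gaps is therefore not read as a trait of the far peaks. In gaps of 10 to 20 kb, 70 far summits lay in 62 gaps. The gaps named here were chosen after their values were seen. The gap of 11907 bp between AT4G16770 and HB-2 (AT4G16780, also known as ATHB2), a homeodomain gene induced by shade, held 3 far summits at 8291, 5696 and 4846 bp from HB-2. In the same order, the summits lay 3617, 6212 and 7062 bp from AT4G16770. Their scores were 69.52, 104.51 and 103.24 and their heights 33, 47 and 54 fragments. The gap of 39413 bp before PHI-1 (AT1G35140) held 3 as well, at 11455, 10134 and 6878 bp from it, with lower summits of 27, 16 and 21 fragments. The gap of 17123 bp between GPAT6 (AT2G38110), a gene of cutin synthesis, and AUX1 (AT2G38120), the auxin influx carrier gene, held 2 summits with scores of 60.18 and 64.41. The 2 were nearer to GPAT6, at 4893 and 5689 bp, than to AUX1, at 12231 and 11435 bp. Another summit of the list lay within 5 kb of 25.3% of far summits and of 30.3% of the other summits.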

How the data were processed

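ChIP-seq was done on 2 libraries, IBH1-GFP and GFP, each from DNA of 3 pooled ChIP experiments amplified with 18 PCR cycles, per the labels' protocols. The tools were MACS, Bowtie and CASAVA 1.8.2 and the build TAIR9, per the submitters' processing notes. Their settings, and the use of the GFP library as background, are not given in those notes. The authors deposited a score for each peak, which MACS writes as 10 times the −log10 of a p-value, and a signal at each summit, a whole number of stacked fragments. The list holds 2945 peaks, and 1 on the mitochondrial genome was left out.

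Genes came from a RefSeq table of TAIR10.1 (27444 protein-coding and 10455 other genes on chromosomes 1 to 5), which gives bounds but no strand, exons or sequence. It gave the names, types and neighbours. Its bounds also set which summits were far, the amount of far sequence, the gene-poor windows and the gaps. When all summits were moved by up to 5000 bp in 100 bp steps, the share in protein-coding genes peaked within 200 bp of no shift on each chromosome. Chromosome lengths run to the last annotated gene or peak. Gene-poor windows and distances were computed with Python 3.11.15, pandas 2.3.3, numpy 2.4.6 and scipy 1.17.1, and the distance step was checked on generated positions with known answers. A shorter last window was never called gene-poor. Shares have exact binomial intervals and densities exact Poisson intervals at 95%.

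No test was run, since 1 list was analysed. Named peaks are the 15 highest scores, the 5 tallest, widest and farthest, 3 on each side of the limit, those within 200 bp of small RNA genes (up to 5 a type) and those nearest to a gene of the bHLH network, brassinosteroid or light lists, which were matched by symbol or alias. TAS3, the miRNA genes beyond 200 bp, the named transposon relatives, the 2 tall summits in pseudogenes and the gaps with several summits were chosen after their values were seen. The members, lists and strata were chosen with earlier results of these data known. Alternatives varied the distance limit, the point measured, the score limit, merging, the chromosomes and windows included and the gene types counted.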

Additional observations from a re-analysis of the deposited data

How the results depend on the processing

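Of 87 combinations of result and setting, 66 kept their value, meaning within 1.5 times for the number of far peaks and within the 95% interval of the reported value for shares and medians. The number of far peaks, 281, was 437 with a limit of 500 bp, 159 with 2000 bp and 38 with 5000 bp, and 68 and 145 with scores of 100 or more and at or above the list median, all by construction. The limit of 2000 bp gave 47.2% of summits in another annotated gene and 18.9% in gene-poor windows, against 39.5% and 13.9%. The limit of 5000 bp gave 63.2% and 31.6%, with a median score of 68.6 and a median height of 23. Scores of 100 or more gave a median score of 127.91, height of 40.5 and width of 943 bp, with 8.82% in gene-poor windows, and scores at or above the list median gave 97.64, 34 and 922 bp. At scores of 100 or more the far peaks were narrower than the other peaks, at 943 bp against 1082 bp, and their median height was 40.5, against 35 in the others. The order of the heights turned with the distance limit: the median was 26 in far peaks and 27 in the others at 2000 bp, and 23 in far peaks and 27 in the others at 5000 bp, against 28 and 27 at 1000 bp. Without pseudogenes 11.4% of summits lay in another gene. The share in gene-poor windows was 2.49% with under 40 genes per window and 25.6% with under 80, while far summits per Mb there were 0.61 and 4.37, below the 14.5 and 15.1 per Mb elsewhere. The median width kept its value with the 5000 bp limit. Leaving out any chromosome changed none of the 6 results beyond these limits. Leaving out gene-poor windows gives no share for them. No paired analysis was possible because the design has 1 library a group. With unknown depth, sequence outside the listed peaks cannot be said to lack IBH1.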
